A study of Mus musculus with 14 samples.

Results

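Meis1, Hhex, Myb, Mecom and Ikzf1 encode transcription factors (TFs) that are required for the formation, maintenance or lineage choice of hematopoietic stem and progenitor cells. The binding of other TFs around these 5 genes was followed through blood cell formation from mouse embryonic stem cells (ESCs). A peak was counted for a gene when it overlapped the RefSeq span of that gene or the 30 kb on each side of it, and the 100 kb on each side in the case of Myb. By this rule 148 of the 158488 peaks in 14 chromatin immunoprecipitation (ChIP-seq) peak lists belonged to the 5 loci. Peaks that overlapped between lists were merged, which gave 103 regions in the 5 windows out of 117293 in the genome.

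Each list came from 1 antibody in 1 sorted population of strain 129 cells carrying a Brachyury (Bry) GFP reporter. Mesoderm (MES) was sorted as GFP-positive and FLK1-negative cells and mapped for C/EBPβ and ELK4, while the hemangioblast (HB), positive for both, was mapped for C/EBPβ and GATA2. Hemogenic endothelium (HE), which was Tie2+ and Kit+ but CD41-, was mapped for C/EBPβ. CD41+ hematopoietic progenitors (HP) were mapped for C/EBPβ, GATA1, GATA2, GFI1B, PU.1 and RUNX1, and CD11b+ macrophages (MAC) for C/EBPβ, PU.1 and RUNX1. These lists are only part of the factor maps in the study. It also mapped OCT4 in MES, TEAD4 in HB, MEIS1 in HE and GFI1 in HP. FLI1 was mapped in HE, HP and MAC, and TAL1 and LMO2 in HB, HE, HP and MAC. Those maps were not used here, so the counts for each stage cover only the factors listed above. The paper names Meis1 among the genes that TAL1 and LMO2 regulate together at HB. All cells were grown in culture from ESCs, so that none came from an embryo or an adult animal. No list had a replicate, so differences between lists carry no error between samples, and intervals given with shares are exact Clopper-Pearson 95% intervals that cover counting error only. Peaks had no height or score in these lists, and the study's table of sequence coverage was not used here.

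Meis1 is a homeodomain protein that acts with HOX and PBX partners and maintains stem cells. Hhex, another homeodomain protein, acts from the hemangioblast onward and is also used in liver and endothelium. Myb is the DNA-binding protein without which definitive progenitors fail to expand. Mecom produces the zinc-finger proteins EVI1 and MDS1-EVI1 from separate promoters and is confined in blood largely to stem cells. Ikzf1 encodes Ikaros, a zinc-finger protein best known for lymphoid development. Distal enhancers control many genes of this kind, and those of Myb lie far outside the gene, partly within the introns of its neighbour Ahi1, which is why its window was wider. The factors mapped include GATA1 and GATA2, zinc-finger proteins of erythroid cells, megakaryocytes and progenitors. GFI1B is a zinc-finger repressor, RUNX1 is the factor needed for the endothelial to hematopoietic transition, and PU.1, an ETS protein encoded by Spi1, and C/EBPβ, a leucine zipper protein, are drivers of myeloid cells.

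The sequences shown first are those of the regions found in the most lists at each locus, since the account of each locus turns on them. They are plus-strand reference sequences of GRCm38, the genome of strain C57BL/6J and not of the 129 cells used. Capitals mark a consensus of a factor whose peak lies in the region. The words searched, on both strands, were TTGCACAA, TTGCATAA, TTGCGCAA and TTGCGTAA for C/EBPβ, GAGGAAGT for PU.1, TGTGGTT for RUNX1, AGATAAG and AGATAAC for GATA factors, AATCACTGC and AATCACAGC for GFI1B, and CCGGAAGT for ELK4. The PU.1 and ELK4 words share the letters GGAAGT but differ before them, so that no site matches both. The Myb distal region, at chr10:21054754-21055053, was found in 7 lists. The Hhex intronic region, at chr19:37435629-37435928, and the Ikzf1 intronic region, at chr11:11730234-11730533, were each found in 4. The Meis1 intronic region, at chr11:18969872-18970171, and the Mecom intronic region, at chr3:30105091-30105390, were each found in 3.
Myb distal region: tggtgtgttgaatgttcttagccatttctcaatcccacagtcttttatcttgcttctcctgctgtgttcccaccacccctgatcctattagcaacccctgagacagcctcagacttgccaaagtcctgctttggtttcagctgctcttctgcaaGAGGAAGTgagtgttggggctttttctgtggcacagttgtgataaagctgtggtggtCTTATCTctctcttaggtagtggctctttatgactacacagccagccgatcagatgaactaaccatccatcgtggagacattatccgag
Hhex intronic region: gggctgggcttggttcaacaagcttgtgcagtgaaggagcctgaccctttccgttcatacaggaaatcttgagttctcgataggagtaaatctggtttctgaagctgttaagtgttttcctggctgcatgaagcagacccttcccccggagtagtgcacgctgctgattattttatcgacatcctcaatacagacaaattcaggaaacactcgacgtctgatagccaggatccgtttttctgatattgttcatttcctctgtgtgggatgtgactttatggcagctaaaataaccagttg
Ikzf1 intronic region: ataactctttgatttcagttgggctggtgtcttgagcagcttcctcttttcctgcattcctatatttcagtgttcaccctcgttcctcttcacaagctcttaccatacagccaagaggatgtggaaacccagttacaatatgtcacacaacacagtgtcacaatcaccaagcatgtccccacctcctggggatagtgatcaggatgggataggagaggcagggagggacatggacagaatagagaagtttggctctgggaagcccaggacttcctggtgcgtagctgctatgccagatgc
Meis1 intronic region: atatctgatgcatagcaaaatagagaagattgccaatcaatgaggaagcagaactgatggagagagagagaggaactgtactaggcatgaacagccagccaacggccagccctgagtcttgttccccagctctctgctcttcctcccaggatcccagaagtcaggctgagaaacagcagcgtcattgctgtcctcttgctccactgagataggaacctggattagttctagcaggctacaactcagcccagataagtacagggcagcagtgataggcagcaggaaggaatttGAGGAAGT
Mecom intronic region: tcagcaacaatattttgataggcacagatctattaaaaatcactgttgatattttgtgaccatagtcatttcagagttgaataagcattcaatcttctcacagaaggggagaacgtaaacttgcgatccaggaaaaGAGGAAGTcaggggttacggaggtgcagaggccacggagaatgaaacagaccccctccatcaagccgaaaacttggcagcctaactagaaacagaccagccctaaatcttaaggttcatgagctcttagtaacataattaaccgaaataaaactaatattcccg

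In the Myb distal region the capitals are the PU.1 word GAGGAAGT and, further along, the GATA word read on the minus strand, CTTATCT. The PU.1 word also stands in the Meis1 and Mecom stretches. In the Hhex and Ikzf1 stretches none of the words of the bound factors was present, which says only that these letters are not in these windows. A second Hhex region in the same intron, at chr19:37436562-37436861, is shown because it lies nearest to 1.5 kb from the Hhex start, where the study placed a PCR target. Short stretches around the summits of a C/EBPβ region of Hhex (chr19:37442980-37443079) and one of Myb (chr10:21156539-21156638) are shown because they hold a C/EBPβ word at the summit, and they were chosen after their values were seen. The last pair covers the flanks upstream of the Meis1 start (chr11:19019652-19019915) and of the Myb start (chr10:21160985-21161162), where MAC PU.1 and HP GFI1B peaks lay.
Hhex second intronic region: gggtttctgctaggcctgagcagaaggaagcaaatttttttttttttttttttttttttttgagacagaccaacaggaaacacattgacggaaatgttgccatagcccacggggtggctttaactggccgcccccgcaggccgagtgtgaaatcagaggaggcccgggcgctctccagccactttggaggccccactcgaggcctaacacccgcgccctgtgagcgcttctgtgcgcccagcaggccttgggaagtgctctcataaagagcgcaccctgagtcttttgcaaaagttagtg
Hhex downstream C/EBPβ site: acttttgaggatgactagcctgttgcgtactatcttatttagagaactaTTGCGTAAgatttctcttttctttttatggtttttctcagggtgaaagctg
Myb intronic C/EBPβ site: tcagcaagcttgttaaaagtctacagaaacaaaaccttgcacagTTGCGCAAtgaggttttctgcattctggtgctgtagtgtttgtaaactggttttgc
Meis1 upstream flank: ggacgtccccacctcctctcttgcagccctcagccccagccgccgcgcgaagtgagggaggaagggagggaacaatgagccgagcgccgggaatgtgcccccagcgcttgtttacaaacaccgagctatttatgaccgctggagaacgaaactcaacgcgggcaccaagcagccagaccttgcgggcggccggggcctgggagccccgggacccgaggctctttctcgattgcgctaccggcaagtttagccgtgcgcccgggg
Myb upstream flank: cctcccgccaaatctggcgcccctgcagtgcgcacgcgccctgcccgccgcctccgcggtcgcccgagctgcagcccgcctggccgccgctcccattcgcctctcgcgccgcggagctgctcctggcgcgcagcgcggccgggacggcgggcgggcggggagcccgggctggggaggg

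Of the 148 peaks at the 5 loci, 147 came from the HP and MAC lists (99.3%), near the 98.3% that these lists make up of all peaks in the series. Of the 70 combinations of list and locus, 28 held at least 1 peak. The 2 MES lists, the HE list and the HB C/EBPβ list had no peak in any of the 5 windows, and the HB GATA2 list had 1, at Myb. The 6 HP lists had peaks in 17 of 30 combinations and 33 peaks in all. MAC PU.1 and MAC C/EBPβ had peaks at all 5 loci, 114 together, whereas MAC RUNX1 had none.

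**Figure D1:**
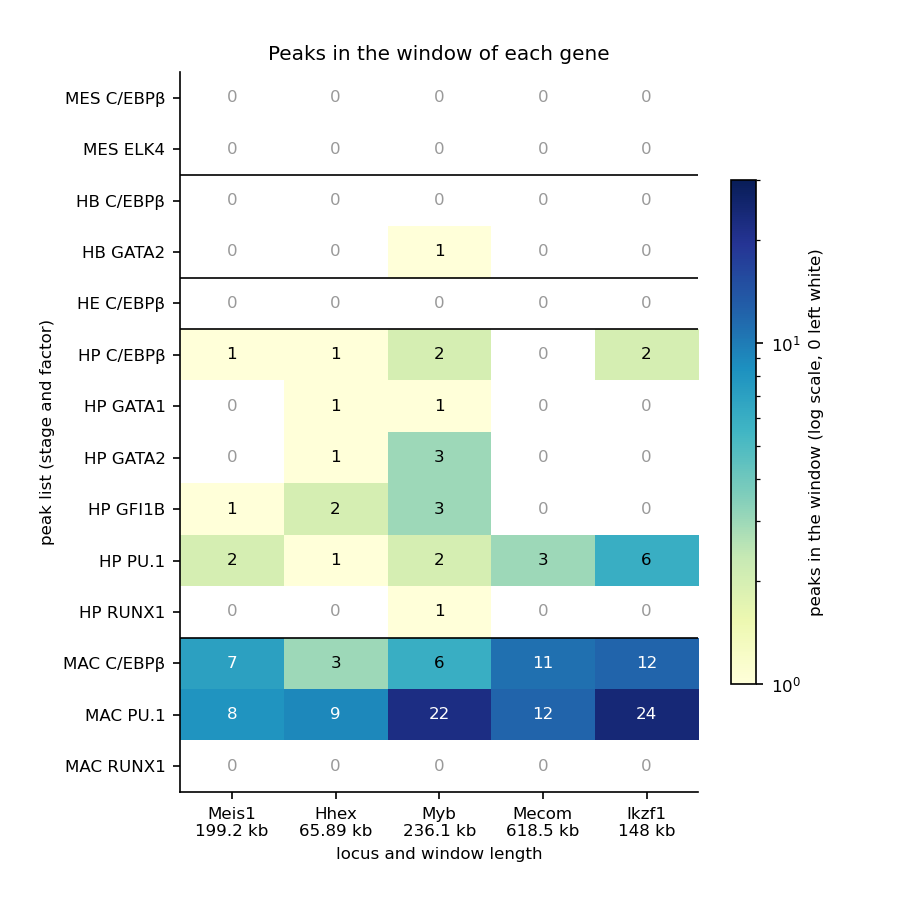
Number of peaks of each list (rows, grouped by stage) in the window of each gene (columns, with the window length in kb), with colour on a log scale and counts of 0 left white. The filled cells lie in the HP and MAC rows apart from the single HB GATA2 peak at Myb, and the largest counts are the 24 and 22 MAC PU.1 peaks at Ikzf1 and Myb.

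These counts have to be read against how often each list reaches any gene. Among the 21774 coding genes, taking the span and 30 kb on each side, MES C/EBPβ had a peak at 7.83%, MES ELK4 at 5.75% and HB C/EBPβ at 5.14%. The shortest lists reached fewer genes, with 0.423% for HB GATA2, 0.85% for HE C/EBPβ and 0.602% for MAC RUNX1. With shares this low, a list with 0 of 5 loci gives no sign that binding was absent. In HP the shares were 17.9% for C/EBPβ, 2.23% for GATA1, 4.19% for GATA2, 14.4% for GFI1B, 44.1% for PU.1 and 9.43% for RUNX1. In MAC, 77.3% of genes had a C/EBPβ peak and 81.3% a PU.1 peak, so the presence of these factors at all 5 loci is near the background.

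With the 100 kb flank used for Myb the shares were higher. They were 16.9% for MES C/EBPβ, 11.6% for MES ELK4, 11.2% for HB C/EBPβ, 0.896% for HB GATA2 and 2.04% for HE C/EBPβ. For HP they were 34.4% for C/EBPβ, 5.2% for GATA1, 9.48% for GATA2, 28.9% for GFI1B, 66.5% for PU.1 and 19.4% for RUNX1. For MAC they were 85.7% for C/EBPβ, 87.6% for PU.1 and 1.51% for RUNX1. HP C/EBPβ and HP PU.1 peaks were found at 4 and 5 of the 5 loci. HP GFI1B reached Meis1, Hhex and Myb, HP GATA1 and HP GATA2 reached Hhex and Myb, and HP RUNX1 reached Myb alone. These windows differ in flank. With 30 kb for all loci, Hhex alone had HP GATA1 and GATA2 peaks and Myb had neither, and with 100 kb for all loci Ikzf1 had 1 HP GATA2 and 3 HP GFI1B peaks.

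The share of peaks by stage differed from that of the whole series in the direction of HP. Of the 148 peaks, 22.3% came from HP lists, against 11% of all 158488 peaks, and 77% came from MAC lists, against 87.3%. By locus the HP peaks were 4 of 19 at Meis1, 6 of 18 at Hhex, 12 of 41 at Myb, 3 of 26 at Mecom and 8 of 44 at Ikzf1. The comparison was with all peaks of the genome and not with peaks around coding genes. Of the 103 regions, 25 held an HP peak (24.3%, interval 16.4% to 33.7%), against 13.6% of all regions in the genome. The regions with HP GATA1, GATA2, GFI1B or RUNX1 numbered 7 (6.8%, interval 2.78% to 13.5%), against 2.79%. Of these 7, 3 were taken in only by the 100 kb flank of Myb. With 30 kb for all loci they numbered 4 of 89 (4.49%, interval 1.24% to 11.1%), regions with any HP peak 21 of 89 (23.6%, interval 15.2% to 33.8%), and HP peaks 24 of 124 (19.4%). No test was applied to these shares, because the windows were laid around chosen genes and peaks within a window are not independent.

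Myb had 41 peaks from 9 lists in a window of 236.1 kb. With 30 kb on each side, as used for the other loci, 17 peaks from 5 lists were left and no HP GATA1, GATA2, PU.1 or RUNX1 peak, so the number of lists is not to be compared with that of the other loci. The gene lies on the minus strand of chromosome 10 from 21124930 to 21160984. Its window held 3 HP GATA2 peaks, and 29 of the 21774 coding genes (0.133%) had 3 or more within the same flank. HP GFI1B also had 3 peaks, a number reached by 1.63% of coding genes. With 30 kb on each side HP GFI1B had 1, and at least 1 was found at 14.4% of genes. HP C/EBPβ and HP PU.1 had 2 each, and at least 2 were found at 11.1% and 45.5% of genes. HP GATA1, HP RUNX1 and HB GATA2 had 1 each, and at least 1 was found at 5.2%, 19.4% and 0.896% of genes. MAC PU.1 had 22 peaks, equal to 9.32 per 100 kb or 3.07 times its genome average, and 24.5% of genes had at least as many. MAC C/EBPβ had 6, equal to 2.54 per 100 kb or 1.25 times its average, but the median coding gene had 8 with this flank, 63.7% had at least 6 and 60% had a higher density.

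The Myb distal region (chr10:21054676-21055133) held 5 of the 12 HP peaks at this locus. It held HP GATA1, GATA2, GFI1B, PU.1 and RUNX1 and MAC C/EBPβ and PU.1, which are 7 lists and 6 factors. In the genome, 22 of 117293 regions (0.0188%) were found in 7 or more lists, and 10 regions held the same 5 HP factors. This region and those shown first for the other loci were picked for their number of lists. How rare such sets of lists are is therefore no separate support. The Myb distal region lies 106 kb downstream of the Myb start inside Ahi1, which is a ciliary protein gene, and its centre falls in an intron. It also covers 153 bp of Ahi1 coding exon, part of which ends the printed stretch. The nearest start was that of Ahi1, 14.1 kb away, and the peak lists alone do not say which gene a region acts on.

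The summits of the 7 lists in the Myb distal region lay within 58 bp. HP GFI1B, GATA2 and GATA1 were 29, 25 and 20 bp on one side of the median summit, that of MAC C/EBPβ, and HP PU.1 and RUNX1 were 11 and 29 bp on the other. The MAC PU.1 summit was 10 bp from the median and 1 bp from the HP PU.1 summit. The PU.1 word was centred 2 bp from the MAC PU.1 summit. The GATA word was 84 bp from the nearest GATA summit and 35 bp from that of RUNX1. No RUNX1, GFI1B or C/EBPβ word was found in the region. Only exact words were searched, which does not show that a site was absent. The printed stretch also holds TGTGGT, the RUNX1 word without its last letter, and TGATAA, and neither was counted.

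**Figure D2:**
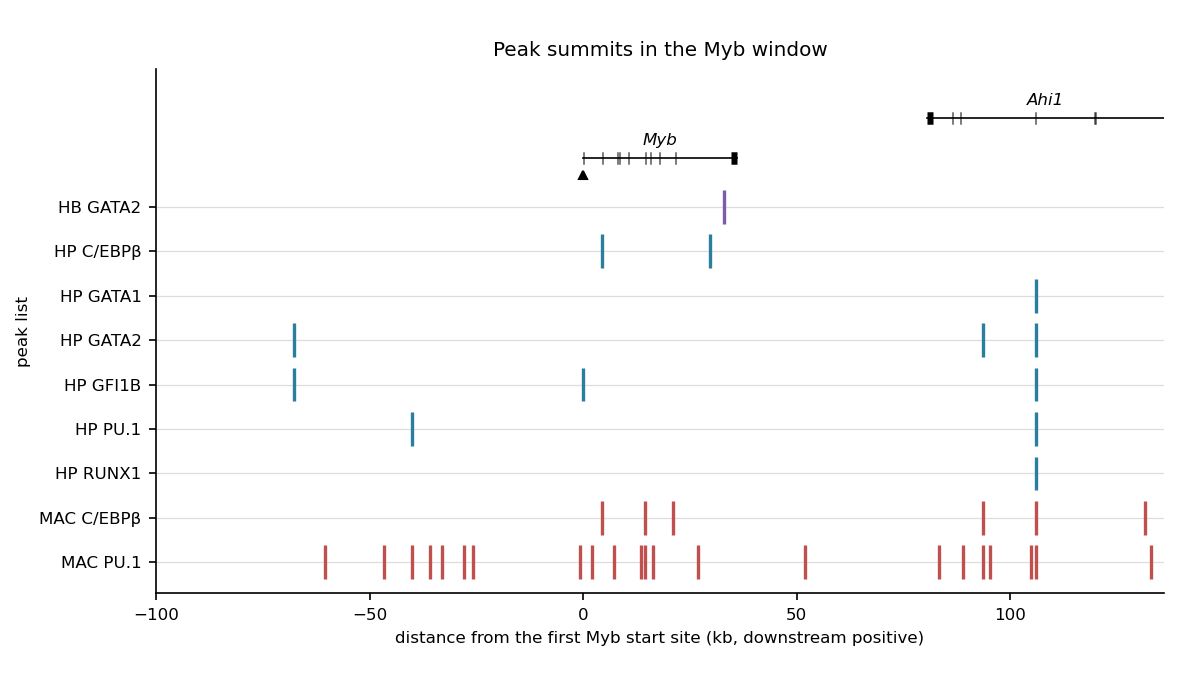
Peak summits (vertical bars) of each list in the Myb window by distance from the Myb start in kb, with HB in purple, HP in blue and MAC in red, and with the spans (lines), exons (boxes) and Myb start (triangle) above. Summits of 7 lists stand in 1 column at 106 kb, inside Ahi1, and the HP GATA2 and GFI1B bars at 67.7 kb upstream have no MAC bar with them.

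The remaining GATA2 peaks at Myb fell in separate regions. One (chr10:21067102-21067607) lay in an intron of Ahi1 93.6 kb downstream of the Myb start, with MAC C/EBPβ and MAC PU.1, and its summits spread over 106 bp. The other (chr10:21228475-21228889) lay 67.7 kb upstream, outside coding genes but inside the noncoding gene Gm33728, with HP GFI1B. The GATA2 and GFI1B summits there were 15 bp apart and a GATA word was 74 bp from the GATA2 summit. This region had no MAC peak, and its nearest coding start was that of Hbs1l, a translation factor gene, at 67.3 kb. The single HB GATA2 peak (chr10:21127762-21128161) lay in a Myb intron 33 kb from the start, and no HP or MAC list had a peak there. It held no GATA word, and over that whole list 6 of 97 peaks (6.19%) held one. The study entered the quality control PCR of HB GATA2 as N/A, so this peak is to be read with care.

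At the Myb gene itself, HP GFI1B had a peak over the start (chr10:21160763-21161162), centred 22 bp downstream in the 5′ UTR. The region was rich in CpG, with 44 CpG dinucleotides in 400 bp and 70.2% G and C, and part of it is the Myb upstream flank. No MAC peak overlapped it, and the nearest MAC PU.1 region was centred 711 bp upstream of the start. HP C/EBPβ was found in 2 introns. At 4.4 kb from the start (chr10:21156380-21156789) the HP and MAC C/EBPβ summits were 10 bp apart, and the word TTGCGCAA lay 2 bp from the nearer summit. At 29.7 kb (chr10:21131052-21131451) HP C/EBPβ stood alone with no C/EBPβ word. The second HP PU.1 peak, 40 kb upstream (chr10:21200754-21201154), shared its summit with MAC PU.1 to within 1 bp, with a PU.1 word 7 bp from the HP summit.

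Hhex had 18 peaks from 7 lists in 65.89 kb, the shortest window. The gene spans 5891 bp on the plus strand of chromosome 19, from 37434841 to 37440731. It had 1 HP GATA1 peak, 1 HP GATA2 peak and 2 HP GFI1B peaks, and the last number was reached by 2.04% of coding genes. At least 1 HP GATA1 peak was found at 2.23% of genes and at least 1 HP GATA2 peak at 4.19%. HP C/EBPβ and HP PU.1 had 1 peak each, and at least 1 was found at 17.9% and 44.1% of genes. MAC PU.1 had 9 peaks, or 13.7 per 100 kb and 4.49 times its genome average, and 26.9% of genes had at least as many while 11.5% were denser. MAC C/EBPβ had 3, or 2.24 times its average, which equals the median coding gene and was reached by 55.5%. With 100 kb on each side Hhex had 14 MAC C/EBPβ and 21 MAC PU.1 peaks, where the median coding gene had 8 and 13.

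The first Hhex intronic region (chr19:37435545-37436126), centred 994 bp downstream of the start, held HP GATA1, GATA2 and GFI1B and MAC PU.1. The HP summits lay 938, 923 and 903 bp from the start, within 35 bp of each other, while MAC PU.1 had its summit at 1085 bp. This combination of GATA1, GATA2 and GFI1B was found in 57 of 117293 regions (0.0486%), and 2 of them were here and at the Myb distal region. No GATA or GFI1B word was present in the 582 bp of the region. For GATA factors only AGATAAG and AGATAAC were searched, so other forms, such as TGATAG in the printed stretch, were not counted. Over their whole lists, 48.8% of HP GATA1 peaks and 46.6% of HP GATA2 peaks held a GATA word, and 8.87% of HP GFI1B peaks held a GFI1B word.

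The second intronic region (chr19:37436467-37436926), centred 1.85 kb from the start, held HP GFI1B, MAC C/EBPβ and MAC PU.1 with summits within 60 bp. A GATA word stood 167 bp from the GFI1B summit, outside the stretch shown. Downstream of the gene, a region 8.26 kb from the start (chr19:37442818-37443389) held HP C/EBPβ, MAC C/EBPβ and MAC PU.1. Here the C/EBPβ summits of HP and MAC were 13 bp apart and the word TTGCGTAA lay 3 bp from the HP summit, whereas the MAC PU.1 summit was 159 bp off. At 13.6 kb (chr19:37448220-37448654) the HP PU.1 peak lay on a MAC PU.1 peak. All 4 Hhex regions with an HP peak also had a MAC peak.

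**Figure D3:**
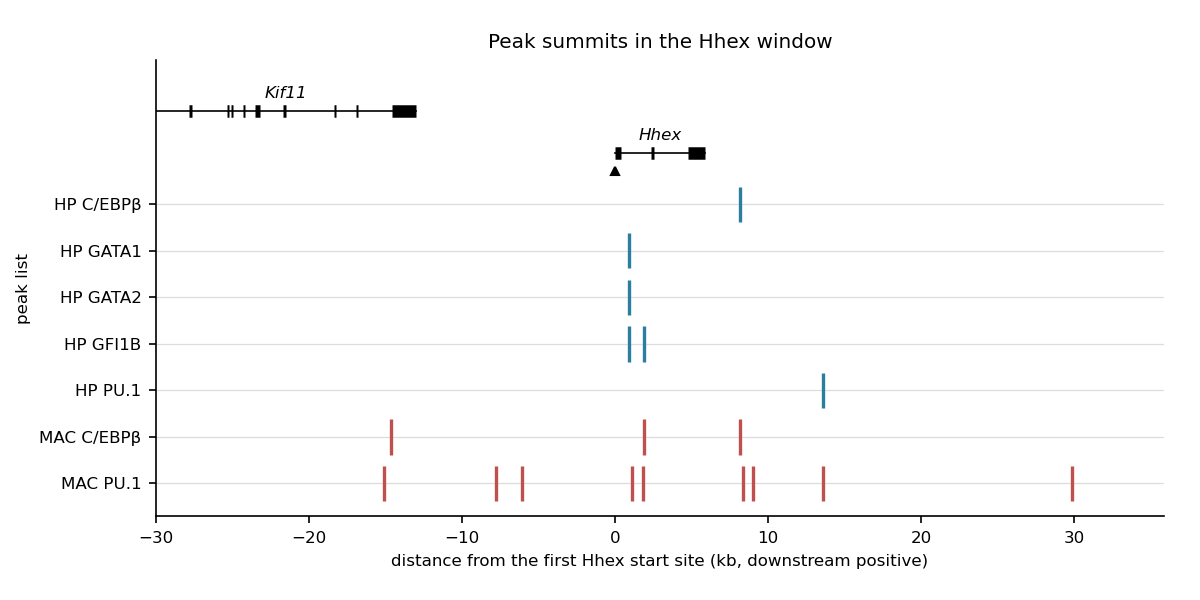
Peak summits (vertical bars) of each list in the Hhex window by distance from the Hhex start in kb, HP in blue and MAC in red, with the spans (lines), exons (boxes) and Hhex start (triangle) above. The GATA1, GATA2 and first GFI1B bars coincide just inside the gene, while the HP C/EBPβ and HP PU.1 bars stand alone among HP lists at 8189 and 13613 bp.

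A site named for its position 1.5 kb from the Hhex start was a PCR target in the quality control of the HP C/EBPβ, HP GATA2, HP PU.1, MAC C/EBPβ and MAC PU.1 experiments. The Hhex peaks of these lists may therefore not be independent of that quality control. The coordinates of the target are not given in the sources used here. From a point 1.5 kb downstream of the RefSeq start, the nearest summit was 325 bp away for MAC PU.1, 371 bp for MAC C/EBPβ, 385 bp for HP GFI1B, 562 bp for HP GATA1 and 577 bp for HP GATA2. The nearest HP C/EBPβ and HP PU.1 summits were 6689 and 12113 bp away. With peaks 400 bp wide, no peak of any list covered the point.

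Meis1 had 19 peaks from 5 lists in 199.2 kb. It lies on the minus strand of chromosome 11 from 18880428 to 19019651 and has 4 annotated coding starts within 3.67 kb. HP PU.1 had 2 peaks, HP C/EBPβ and HP GFI1B 1 each, MAC C/EBPβ 7 and MAC PU.1 8. In density, MAC PU.1 stood at 1.32 times and MAC C/EBPβ at 1.73 times the genome average. At least 8 MAC PU.1 peaks were found at 32.9% of coding genes, at least 7 MAC C/EBPβ peaks at 18.5% and at least 2 HP PU.1 peaks at 20.2%. At least 1 HP C/EBPβ peak was found at 17.9% and at least 1 HP GFI1B peak at 14.4%. By density, 59% of genes stood above Meis1 in MAC PU.1, 46.6% in MAC C/EBPβ and 34.9% in HP PU.1. For HP C/EBPβ and HP GFI1B these shares were 16.4% and 13.1%.

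The Meis1 start carried 3 neighbouring regions with different factors. HP C/EBPβ and MAC C/EBPβ shared a region in the 5′ UTR (chr11:19018806-19019216), with summits 11 bp apart and the centre 42 bp from the nearest start. MAC PU.1 had its own peak over the first start (chr11:19019516-19019915), centred 64 bp upstream. HP GFI1B had a peak 850 bp upstream (chr11:19020302-19020701) with no MAC peak on it. All 3 regions were rich in CpG, with 21, 29 and 21 CpG dinucleotides. The only word of the search in them was an ELK4 word in the C/EBPβ region, where no ELK4 peak lay, and ELK4 was mapped in MES only.

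Inside the gene, the Meis1 intronic region (chr11:18969754-18970328), 45.9 kb from the nearest start, held HP PU.1, MAC C/EBPβ and MAC PU.1. The summits were spread over 175 bp, with HP PU.1 59 bp on one side of MAC C/EBPβ and MAC PU.1 116 bp on the other. The PU.1 word lay 40 bp from the MAC PU.1 summit. The second HP PU.1 peak, 90.9 kb from the nearest start (chr11:18924900-18925318), lay 19 bp from a MAC PU.1 summit and had a PU.1 word 5 bp from its own.

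Mecom had 26 peaks, all from HP PU.1, MAC C/EBPβ and MAC PU.1, in the longest window of 618.5 kb. The gene lies on the minus strand of chromosome 3 from 29951296 to 30509759, and 9 coding starts are annotated over 496.6 kb. In numbers it had 3 HP PU.1, 11 MAC C/EBPβ and 12 MAC PU.1 peaks. For its length these were few, with 1.78 MAC C/EBPβ peaks per 100 kb (0.874 times the genome average) and 1.94 MAC PU.1 peaks per 100 kb (0.638 times). Of all coding genes, 71.5% had a higher MAC PU.1 density. HP PU.1 stood at 1.21 times its genome average. By number alone, 8.81% of genes had at least 3 HP PU.1, 5.31% at least 11 MAC C/EBPβ and 14.4% at least 12 MAC PU.1 peaks. Mecom was the only locus of the 5 below the genome average in these 2 macrophage lists.

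The Mecom regions were nearly all intronic, 20 of 21, and the exception was a MAC PU.1 peak 481 bp upstream of the first start. The gene covers 558464 of the 618464 bp of the window, so a high count inside it is expected from length. The region found in 3 lists (chr3:30105036-30105774) lay 404 kb downstream of the first start and 56.3 kb upstream of a more downstream one. HP PU.1 and MAC PU.1 had summits 6 bp apart there, with the PU.1 word 4 bp from the HP summit, and MAC C/EBPβ had its summit 333 bp from that of MAC PU.1. The other HP PU.1 peaks, at 426 kb (chr3:30083312-30083712) and 518 kb (chr3:29991524-29991931) from the first start, also lay on MAC PU.1 peaks, with summits 1 and 8 bp apart. The first 2 of these 3 lay before the last 4 starts, at 460.6 to 496.6 kb, and the third 21.5 kb past the last of them.

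Ikzf1 had the most peaks, 44 from 4 lists in 148 kb. The gene lies on the plus strand of chromosome 11 from 11684962 to 11772930, with 12 coding starts in its first 5.215 kb. HP PU.1 had 6 peaks, or 10.1 times its genome average, and 0.776% of coding genes had at least as many. HP C/EBPβ had 2, a number reached by 2.99%. MAC PU.1 had 24 peaks, or 16.2 per 100 kb and 5.33 times the average, reached by 1.38% of genes, and MAC C/EBPβ had 12, or 3.98 times, reached by 4.03%. By density, which takes window length into account, 3.6% of genes stood above Ikzf1 in HP PU.1, 7.68% in HP C/EBPβ, 6.37% in MAC PU.1 and 12.9% in MAC C/EBPβ. No peak of a GATA factor, GFI1B or RUNX1 lay in the window, although 100 kb on each side would have taken in 1 HP GATA2, 3 HP GFI1B and 1 HP RUNX1 peak.

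The 6 HP PU.1 peaks of Ikzf1 were spread from 17.2 kb upstream of the first start to the 3′ part of the gene. All 6 lay on MAC PU.1 peaks, and 4 held a PU.1 word. The Ikzf1 intronic region (chr11:11730068-11730600), 40.2 kb from the nearest start, held HP C/EBPβ, HP PU.1, MAC C/EBPβ and MAC PU.1, with summits over 133 bp. This set of 4 lists was found together in 400 regions of the genome (0.341%). It held none of the words searched. A region 73.3 kb from the nearest Ikzf1 start (chr11:11763269-11763760) held HP PU.1, MAC C/EBPβ and MAC PU.1 with 2 PU.1 words, 1 of them 25 bp from the MAC PU.1 summit, and was nearer to the start of Fignl1, at 45.4 kb. The region at the Ikzf1 start (chr11:11686000-11686429), in the 5′ UTR 289 bp from the nearest start, held HP C/EBPβ, MAC C/EBPβ and MAC PU.1 with summits within 30 bp. It had 49 CpG dinucleotides and a PU.1 word 2 bp from the MAC C/EBPβ summit.

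**Figure D4:**
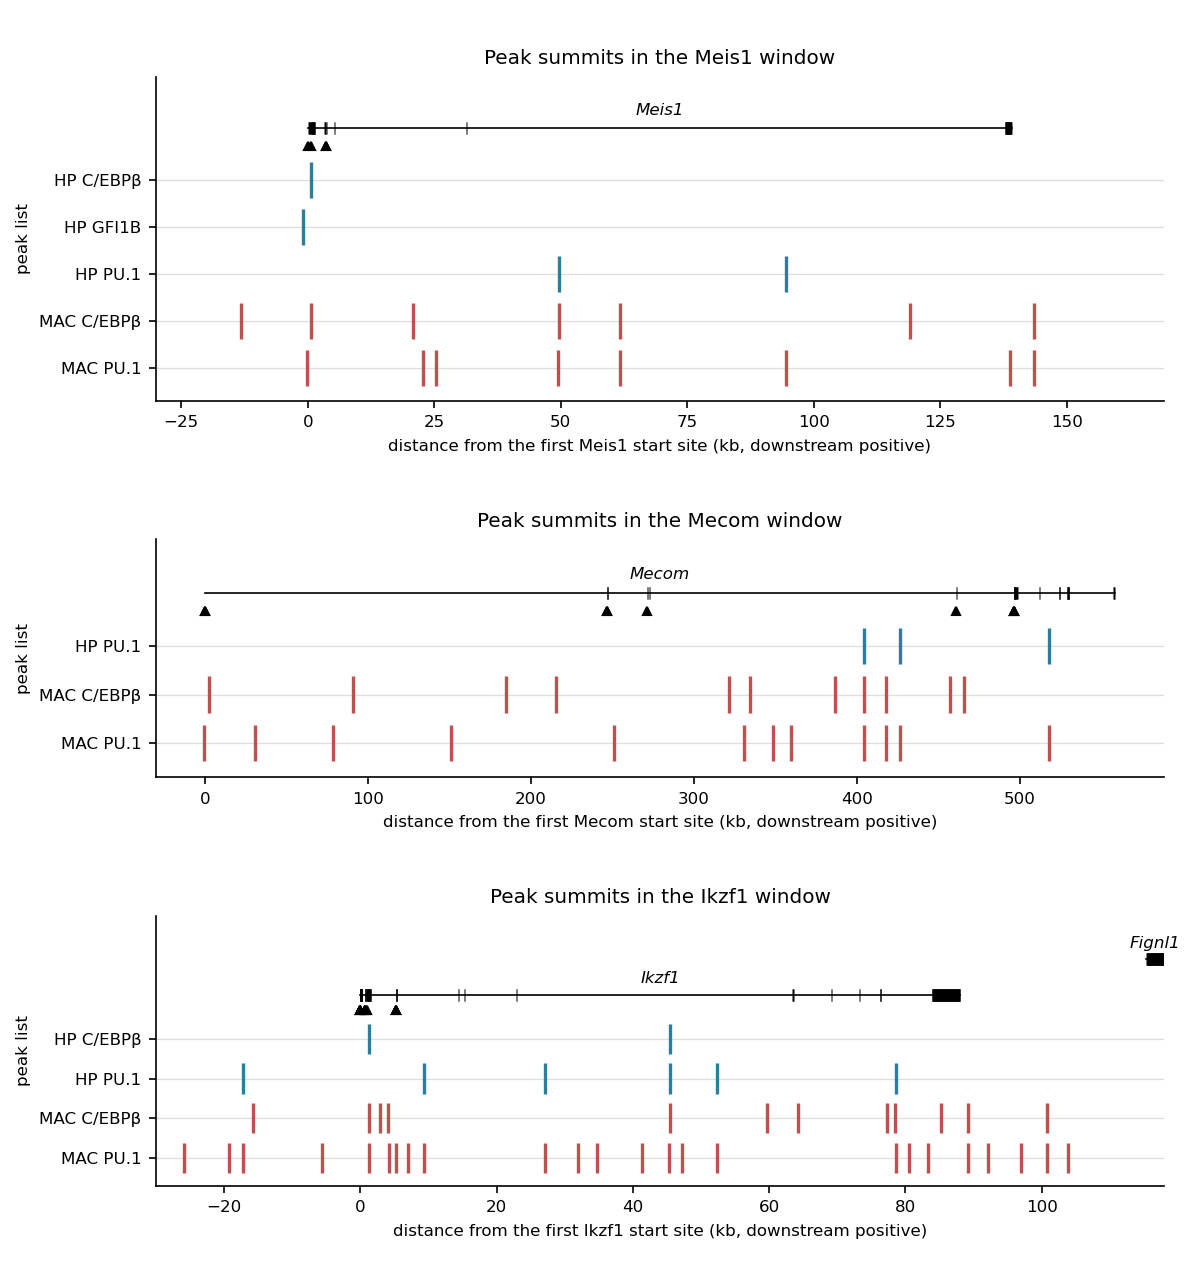
Peak summits (vertical bars) in the windows of Meis1, Mecom and Ikzf1 by distance from the first start of each gene in kb, HP in blue and MAC in red, with spans (lines), exons (boxes) and starts (triangles) above, and with a different scale in each panel. HP PU.1 bars stand above MAC PU.1 bars in all 3 panels, and at Mecom they lie between 404 and 518 kb from the first start.

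Most regions with an HP peak also held a MAC peak, although GATA1, GATA2 and GFI1B had no MAC list. All 14 HP PU.1 peaks in the windows overlapped a MAC PU.1 peak (100%, interval 76.8% to 100%), against 97% of 10943 HP PU.1 peaks in the genome. For C/EBPβ it was 5 of 6 (83.3%, interval 35.9% to 99.6%), against 91.4%. Of the 25 regions with any HP peak, 21 also held a MAC PU.1 or C/EBPβ peak (84%, interval 63.9% to 95.5%), against 88% in the genome. The 4 regions without one were the GFI1B regions at the Meis1 and Myb starts, the GATA2 and GFI1B region upstream of Myb and the C/EBPβ region in the Myb intron. These shares were near those of the whole lists.

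Of the 39 MAC C/EBPβ peaks in the windows, 16 overlapped a MAC PU.1 peak (41%, interval 25.6% to 57.9%), against 42.5% in the genome. The share was 2 of 11 at Mecom and 6 of 12 at Ikzf1, with intervals that overlap. In the reverse direction, 16 of 75 MAC PU.1 peaks lay on MAC C/EBPβ (21.3%, interval 12.7% to 32.3%), against 28.5%. Among the HP lists, 3 of 4 GATA2 peaks lay on a GFI1B peak (75%, interval 19.4% to 99.4%), against 22.8% of all HP GATA2 peaks, and 3 of 6 GFI1B peaks lay on GATA2 (50%, interval 11.8% to 88.2%), against 6%. Of these 3 shared places, 2 lay at Myb beyond 30 kb from the gene. Both HP GATA1 peaks lay on GATA2 peaks, compared with 41.6% in the genome. For HP C/EBPβ, 1 of 6 peaks lay on HP PU.1, in the Ikzf1 intronic region (16.7%, interval 0.421% to 64.1%), near the 14.9% in the genome.

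**Figure D5:**
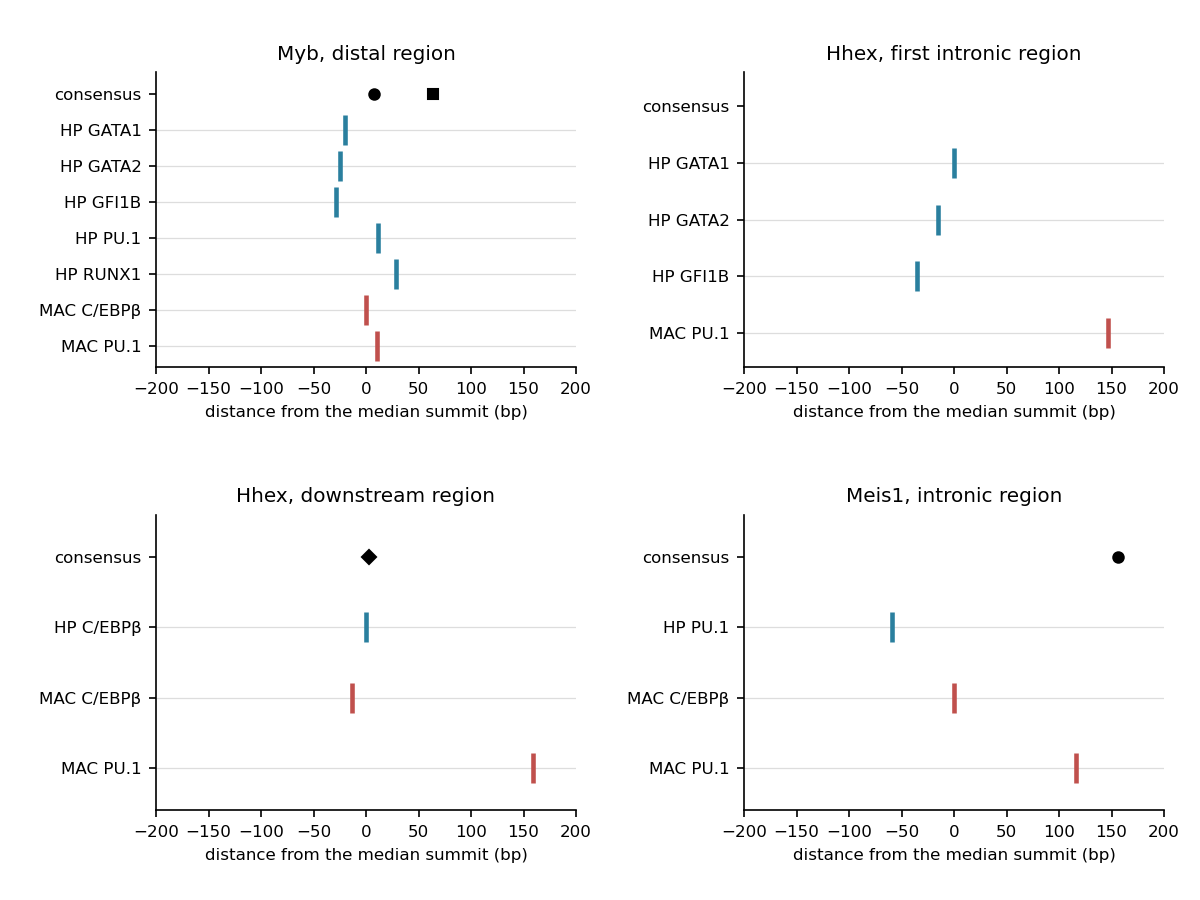
Summits of each list (bars, HP in blue and MAC in red) around the median summit of 4 regions, in bp, with the centre of each consensus of a bound factor in the top row (circle for PU.1, square for GATA, diamond for C/EBPβ). At Myb the 7 summits lie within 58 bp, whereas in the Hhex and Meis1 regions the MAC PU.1 summit stands 116 to 159 bp from the median.

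Most regions lay away from starts. Within 2 kb of a coding start were 13 of 103 regions (12.6%, interval 6.89% to 20.6%), against 19.4% in the genome. By locus these were 3 of 13 at Meis1, 2 of 10 at Hhex, 2 of 29 at Myb, 1 of 21 at Mecom and 5 of 30 at Ikzf1. Introns of the member gene held 56 regions, 31 were intergenic and 10 lay inside a neighbouring coding gene, 8 of them in Ahi1. The share of each window made up of introns was not computed, so these counts have no background. HP PU.1 had 0 of 14 peaks within 2 kb of a start (interval 0% to 23.2%), against 20.9% of its whole list, while HP GFI1B had 4 of 6 (66.7%, interval 22.3% to 95.7%), against 45.1%.

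The PU.1 word GAGGAAGT was present in 10 of 14 HP PU.1 peaks (71.4%, interval 41.9% to 91.6%), against 42.1% of the whole list, and in 22 of 75 MAC PU.1 peaks (29.3%, interval 19.4% to 41%), against 24.4%. Both intervals include the share of the whole list. A C/EBPβ word was found in 2 of 6 HP C/EBPβ peaks, against 38.3%, and in 8 of 39 MAC C/EBPβ peaks (20.5%, interval 9.3% to 36.5%), against 14.9%. A GATA word was present in 1 of 2 HP GATA1 and 2 of 4 HP GATA2 peaks, all at Myb. None of the 6 HP GFI1B peaks held a GFI1B word, and the single HP RUNX1 peak held no RUNX1 word. Only exact words were searched, so these counts do not show that a site was absent. Over all merged regions of the genome, 18.3% held the PU.1 word, 7.99% a C/EBPβ word, 11.1% the RUNX1 word, 9.03% a GATA word, 1.12% a GFI1B word and 1.45% the ELK4 word.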

How the data were processed

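The 14 peak lists used here came from ChIP-seq of 7 factors in 5 ESC-derived populations, and the study mapped further factors. Per the study's methods, the authors trimmed adapters with CutAdapt, aligned reads with Bowtie, kept unique reads, removed duplicates with Picard, called peaks with MACS and refined them with polyPeak. The submitters' processing notes name Bowtie, bedtools and build mm10, and versions are not given in the sources used here. The p-value cutoff differed between lists and was set by eye at reference genes, so the number of peaks in a list is no measure of how much a factor bound. The study entered the PCR of MES C/EBPβ, HB C/EBPβ, HB GATA2 and MAC RUNX1 as N/A, where no enrichment was observed. Those samples were sequenced all the same. Some libraries joined technical runs, and carrier mRNA and histone H2B were added to the HE chromatin. The deposited values are peak starts and ends, each 400 bp wide. A summit here means the peak centre.

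Genes, starts and sequence were taken from RefSeq for GRCm38. A peak was counted when at least 1 bp lay in a window, and peaks of all lists overlapping by at least 1 bp were merged. Similarity between genes was the Jaccard index of bound lists over the 14 lists, with ties broken by peak numbers. Regions were named when found in at least 3 lists or when they held a list other than HP PU.1, MAC PU.1 and MAC C/EBPβ, and the other HP PU.1 regions were added for Meis1, Hhex, Myb and Mecom. The members, gene lists and rules were chosen with earlier results of these data known. No test between conditions was possible with 1 list per group. Python 3.11.15, NumPy 2.4.6, SciPy 1.17.1 and Matplotlib 3.10.9 were used, and the programs were tested on simulated data. Other flanks, nearest-start assignment, removal of regions found in at least 10 lists, a stricter overlap, other promoter distances and other consensus searches were tried.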

Additional observations from a re-analysis of the deposited data

How the results depend on the processing

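Of 42 recalculated values, 40 stayed within 1.5 times the main count or within the interval of the main share. The 148 peaks fell to 91 when only the gene spans were used, which shortens every window, and the share of MAC PU.1 peaks with the PU.1 consensus rose from 29.3% to 49.3% with the shorter word GAGGAAG, which 45% of the whole list holds. The bound combinations ranged from 21 to 33 and the regions found in at least 3 lists from 7 to 12. In the main count the latter were 10 of 103 (9.71%, interval 4.75% to 17.1%), against 5.44% of all regions in the genome. With 30 kb on each side of Myb, its HP GATA1, GATA2, PU.1 and RUNX1 peaks were lost, HP GFI1B fell from 3 peaks to 1 and 17 of its 41 peaks in 5 lists were left. With 100 kb on each side of all loci, Ikzf1 gained 1 HP GATA2, 3 HP GFI1B and 1 HP RUNX1 peak. Mecom gained 1 HE C/EBPβ and 1 HP C/EBPβ peak. Each of these lists had no peak at the locus concerned with the span alone or with 10 or 30 kb. At Hhex the 100 kb flank raised MAC C/EBPβ from 3 peaks to 14, MAC PU.1 from 9 to 21 and HP C/EBPβ from 1 to 2. With the Hhex span alone, MAC PU.1 had 2 peaks, MAC C/EBPβ 1 and HP C/EBPβ 0. The shares of HP peaks and regions were also recalculated at 1 flank for all loci, a choice made after seeing the data: regions with HP GATA1, GATA2, GFI1B or RUNX1 were 4 of 89 at 30 kb and 10 of 134 at 100 kb, within the interval of the main share. No paired analysis was possible because each group held 1 list, and leaving out a replicate was not possible for the same reason. The lists carry no read counts, and the study's table of sequence coverage was not used here.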

Other observations

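Other stem cell regulators were compared at the 30 kb flank, at which Myb had peaks in 5 lists. Of 16 such genes, 10 had an HP GFI1B peak (14.4%), 11 an HP PU.1 peak (44.1%) and 8 an HP C/EBPβ peak (17.9%). Among them, 5 had an HP GATA1 peak (2.23%), 5 an HP GATA2 peak (4.19%) and 4 an HP RUNX1 peak (9.43%). Lists of stages before HP reached some of the 16. MES C/EBPβ had peaks at 4 (7.83%), HB GATA2 at 3 (0.423%), HB C/EBPβ at 2 (5.14%) and HE C/EBPβ at 1 (0.85%). Brackets give the share of all coding genes with such a peak at this flank, and the differences were not tested. A PCR target in the quality control of HP GFI1B was named for Erg, which is among the 16. The HP GFI1B peaks at Erg may therefore not be independent of that quality control. Tal1, a partner of GATA factors in early blood cells, and Runx1 had peaks in 11 lists each and Lyl1, a close relative of Tal1, in 10, against 7 for Hhex and 3 for Mecom. Tal1 had 2 MES C/EBPβ, 2 HB C/EBPβ, 2 HB GATA2 and 1 HE C/EBPβ peak. At the low end, Hlf, a leucine zipper gene of stem cells, had 1 peak in all, from MAC PU.1, and Prdm16, the relative of Mecom, had 5 peaks in 2 lists.

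Of 9 paralogs of Meis1, Myb, Mecom and Ikzf1, 3 had an HP PU.1 peak within the 30 kb flank, 1 an HP C/EBPβ peak, 1 an HP GATA2 peak and none an HP GATA1, GFI1B or RUNX1 peak. Of the 5 members at this flank, 4 had an HP PU.1 peak, 4 an HP C/EBPβ peak, 3 an HP GFI1B peak, 1 an HP GATA1 peak, 1 an HP GATA2 peak and none an HP RUNX1 peak. Over all coding genes the shares were 44.1% for HP PU.1, 17.9% for HP C/EBPβ, 14.4% for HP GFI1B, 2.23% for HP GATA1, 4.19% for HP GATA2 and 9.43% for HP RUNX1, and the difference between paralogs and members was not tested. Meis2 differed from Meis1 in having 2 MES C/EBPβ peaks and 1 HB C/EBPβ peak and no HP peak. Ikzf5 had a MES, an HB and an HP C/EBPβ peak. Ikzf3 and Ikzf4 had MAC PU.1 and MAC C/EBPβ peaks only.

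With the 30 kb flank, the set of lists found at a gene was shared with 3873 genes for Mecom, 910 for Ikzf1, 242 for Meis1 and 2 for Hhex. For Myb, 6 genes had the same 9 lists with the 100 kb flank, a number that is not to be compared with the others. The 2 genes with the 7 lists of Hhex were Macir and Elf1. Of those with the 9 lists of Myb, the nearest in peak numbers were Hnrnpa1, Cbx5 and Nfe2, which are neighbours on chromosome 15, so that their windows share peaks. A PCR target in the quality control of HP GATA1 was named for Nfe2. The genes nearest to Meis1 were P2rx3, Pla2g15 and Sap30, those nearest to Mecom were Cd180, Cdk15 and Eef1g, and those nearest to Ikzf1 were Cyrib, Eefsec and Itgb2.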
